A study of Mus musculus with 6 samples.

Results

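The carriers through which the intestinal epithelium takes up amino acids and small peptides were followed in crypts with and without Arid1a. They are 9 genes out of 13496 tested, picked by name with earlier results of these data known. Every array probe whose accession maps to one of them was used, 13 of 56605 probes in all. Of these carriers 6 lie in the apical membrane, which faces the gut lumen: Slc6a19, Slc6a20a, Slc15a1, Slc7a9, Slc3a1 and Slc1a1. The other 3, Slc7a7, Slc3a2 and Slc7a8, lie in the basolateral membrane, which faces the blood. All 9 had at least 1 probe that passed the filter on dim signals, so none is missing from the fit.

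Protein digested in the small intestine reaches the enterocyte as free amino acids and as di- and tripeptides. Sodium- or proton-driven carriers concentrate them across the brush border, peptidases inside the cell split the peptides, and exchangers on the opposite membrane pass the products to the blood. Several of these carriers work only as a pair of a light chain, which transports, and a heavy chain, which brings the light chain to the membrane. Uptake is a task of mature enterocytes of the villus, whereas crypts hold stem, dividing and Paneth cells together with early enterocytes.

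RNA came from crypts isolated from mouse intestine, and each of the 6 samples was labelled with Cy3 and hybridised to 1 one-colour Agilent array. The 3 control samples are taken to carry the floxed genotype Arid1a f/f, without Cre. In this genotype both alleles of Arid1a can be cut out. The 3 knockout samples carry Villin-Cre; Arid1a f/f, so that Cre recombinase, made under the Villin promoter of the intestinal epithelium, deletes Arid1a there and leaves other cells of the crypt isolate unrecombined. Arid1a encodes a subunit of the BAF chromatin-remodelling complex. The strain is given as mixed for both groups, and the labels give neither the age of the mice nor the stretch of intestine. They also do not say whether samples came from separate animals, so a p-value reflects only how far these arrays spread.

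Before the results, 2 arrays need a remark. For knockout 2 and control 3 the source name and genotype contradict the title and description, and groups here follow title and description. The log2 level of Arid1a was 3.71, 3.47 and 4.01 in controls 1 to 3 against 2.20, 2.07 and 2.51 in knockouts 1 to 3, so both arrays lay with the group of their titles. Its log2 fold change was -1.47 ± 0.21 (SE, n = 3 per group; limma, adjusted p = 0.00733), and with both arrays left out it was -1.23 (limma, adjusted p = 0.0979). Whether the single Arid1a probe lies inside the deleted exons is not known here, so its level is a limited check of the labels. The share of probes well above background ranged from 41.7% to 54.7% over the arrays, no spot was saturated, and the number of arrays limits the precision.

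A level below is the log2 intensity of a probe relative to the 75th percentile of its array, so 0 is the 75th percentile and a difference of 1 is a 2-fold difference. A fold change is the knockout mean minus the control mean of these log2 levels, given with its SE for 3 arrays per group. Adjusted p-values are from limma with Benjamini-Hochberg adjustment over all 13496 genes, two-sided, and a gene passed at an adjusted p under 0.05. Levels of different carriers are not compared, because each comes from its own probe. Summed signals of marker lists add probes of different genes, so the brightest probes weigh most in them.

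The comparison asked how expression of these carriers differs when the epithelium loses Arid1a. Slc6a20a, Slc7a8 and Slc1a1 fell and Slc7a9 rose, while Slc6a19, Slc15a1, Slc3a1, Slc7a7 and Slc3a2 did not pass. The falls were 15.7-fold for Slc6a20a, 5.94-fold for Slc7a8 and 2.02-fold for Slc1a1, and the rise of Slc7a9 was 1.96-fold. Of the 6 apical carriers 2 fell and 1 rose, and of the 3 basolateral carriers 1 fell and 0 rose. Over all genes tested, 14.9% passed, 7.28% as higher and 7.62% as lower in the knockout, beside 4 of 9 carriers. Because the carriers were chosen with earlier results of these data known, their share is a description and not a test of the group. The median log2 fold change was -0.04 over the apical and -0.45 over the basolateral carriers, beside -0.01 over all genes.

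**Figure D1:**
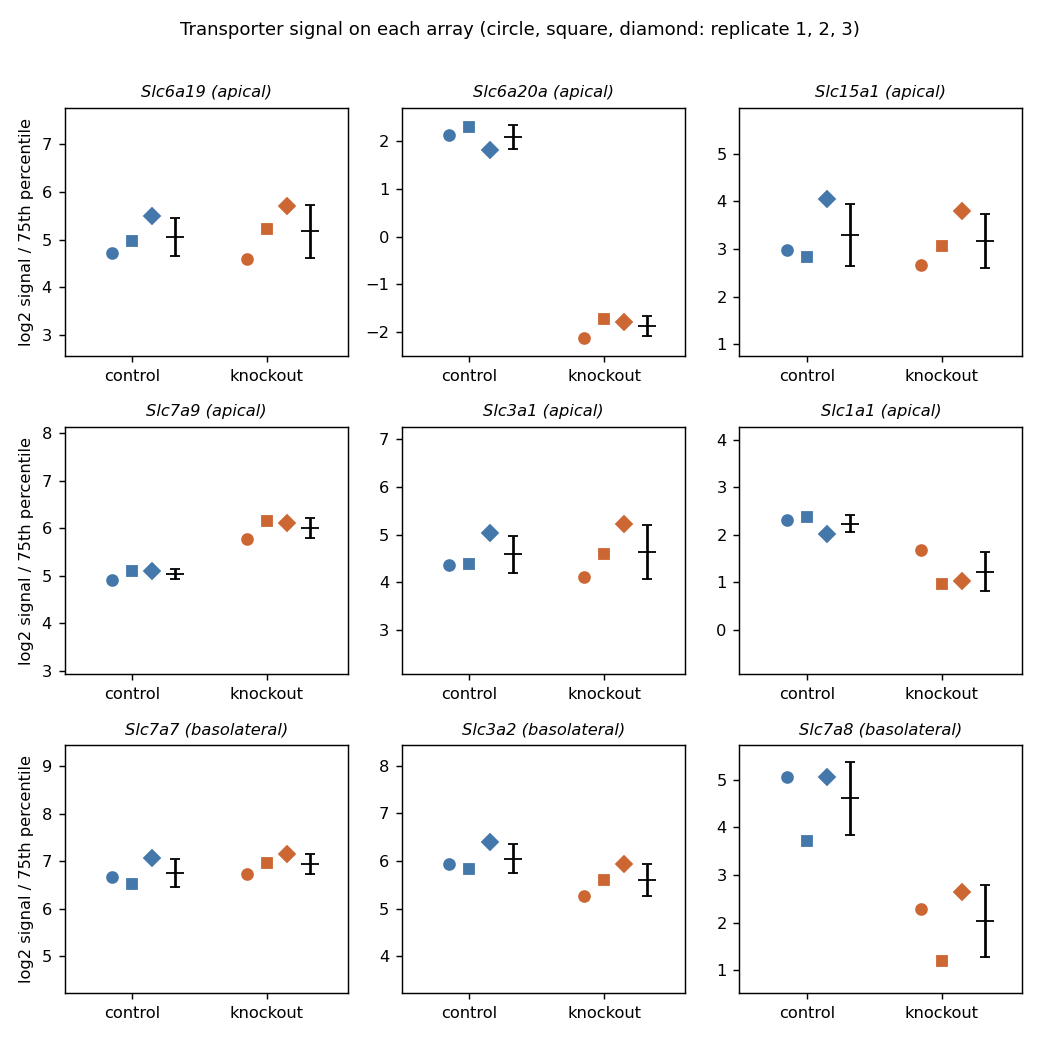
Level of each carrier on each array, as log2 intensity relative to the array's 75th percentile, with all panels spanning the same number of log2 units. Points are single arrays of control (blue) and knockout (orange), and black bars give mean ± SD of 3 arrays. The groups do not overlap for Slc6a20a, Slc7a8, Slc1a1 and Slc7a9, and overlap for the other 5 carriers.

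Slc6a20a, which encodes SIT1, the sodium- and chloride-driven carrier of proline and other imino acids, had the largest change of the 9. Its level was 2.14, 2.31 and 1.82 in controls 1 to 3 and -2.12, -1.73 and -1.79 in knockouts 1 to 3. Every knockout array lay far below every control array, with little spread in either group (SD 0.25 and 0.21). In unscaled terms the processed intensity was 1301, 1385 and 1025 on the control arrays and 67.1, 62.2 and 59.1 on the knockout arrays, still well above background on all 6. The fold change was -3.97 ± 0.20 (limma, adjusted p = 0.000391), and only 44 of the 13496 genes had a lower one. With single arrays left out it was -4.11 to -3.85 with adjusted p from 0.00113 to 0.00493, and the within-slide differences were -4.15 on slide 1 and -3.61 on slide 2. The brighter probe of the close paralog Slc6a20b exceeded background clearly on 0 of 6 arrays.

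Slc7a8 encodes LAT2, the light chain that exchanges neutral amino acids across the basolateral membrane. Its level was 5.06, 3.72 and 5.06 in controls 1 to 3 and 2.30, 1.19 and 2.64 in knockouts 1 to 3. The highest knockout array lay below the lowest control array, and control 2 and knockout 2 were each the lowest of their group. The fold change was -2.57 ± 0.50 (limma, adjusted p = 0.0208). A second, dimmer probe gave -1.70, -1.69 and -1.57 in controls 1 to 3 and -3.67, -5.62 and -3.33 in knockouts 1 to 3, a difference of -2.55, with knockout 2 not well above background. The call was lost without control 1 (-2.35, limma adjusted p = 0.0795) and without control 3 (-2.35, limma adjusted p = 0.0748), and it held without any one of the other 4 arrays, with adjusted p of at most 0.0498.

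Slc1a1, which encodes EAAT3, the sodium-driven carrier of glutamate, aspartate and cysteine, fell less. Its level was 2.31, 2.38 and 2.03 in controls 1 to 3 and 1.69, 0.96 and 1.02 in knockouts 1 to 3. All knockout arrays were below all control arrays, and knockout 1 was the nearest to them. The fold change was -1.01 ± 0.24 (limma, adjusted p = 0.0370). The second probe of Slc1a1 differed by -0.97, also without overlap, and in its place in the fit it did not pass (limma, adjusted p = 0.0572). With 1 array left out Slc1a1 passed only without knockout 1, at -1.25 (limma, adjusted p = 0.00789). Omitting controls 1 to 3 or knockouts 2 and 3 one by one brought limma's adjusted p to 0.129, 0.118, 0.0751, 0.114 and 0.0876.

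Slc7a9 encodes the light chain b0,+AT, which takes up cystine and basic amino acids in exchange for neutral ones, and was the only carrier of the 9 that rose. Its level was 4.91, 5.11 and 5.11 in controls 1 to 3 and 5.77, 6.15 and 6.11 in knockouts 1 to 3. The arrays of each group lay close together, and the groups did not overlap. The fold change was 0.97 ± 0.17 (limma, adjusted p = 0.0155), and a second, dimmer probe of Slc7a9 gave 1.01, again with every knockout array above every control array. The call was lost without control 1, 2 or 3 or knockout 2, with adjusted p of 0.0747, 0.0568, 0.0536 and 0.0586, although the fold change stayed between 0.90 and 1.09 with each single array left out. Scaling to each array's median, under which the median fold change of all genes was -0.26, put Slc7a9 at 0.72 (limma, adjusted p = 0.0509).

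**Figure D2:**
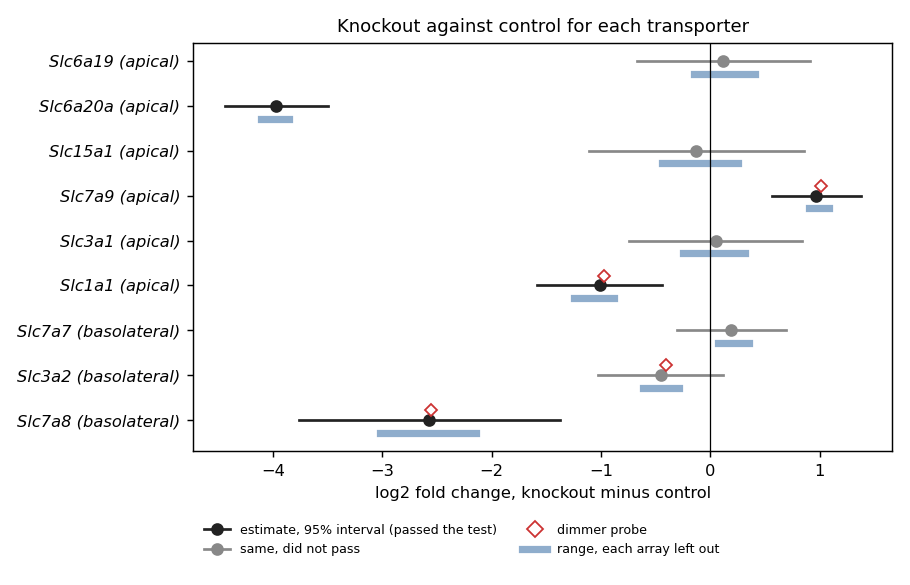
Log2 fold change of each carrier, knockout minus control, with its 95% interval from limma, in black where the gene passed and in grey where it did not. Diamonds are the dimmer probe of the 4 carriers with 2 probes and blue bars the range when each array was left out in turn. Slc6a20a, at -3.97, and Slc7a8, at -2.57, stand apart from the rest, and the probes of each carrier lie close together.

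All knockout arrays lay below all control arrays for 3 of the 9 carriers and above them for 1, where this was so for 20.7% and 19% of all genes, 39.7% in all. Over single probes, 6 of the 13 carrier probes passed when adjusted over all 26746 probes, of which 10.3% did. Without knockout 2 and control 3, whose labels contradict each other, only Slc6a20a passed among the 9, where 2.37% of all genes did. The fold changes of the other carriers that had passed were then -1.92 for Slc7a8, -0.99 for Slc1a1 and 0.93 for Slc7a9, with limma adjusted p of 0.149, 0.196 and 0.158. Slide 1 held controls 1 and 2 and knockouts 1 and 2, and slide 2 held control 3 and knockout 3. On slides 1 and 2 the difference was -2.64 and -2.42 for Slc7a8, -1.02 and -1.01 for Slc1a1, and 0.95 and 1.01 for Slc7a9, and with slide as a block all 4 carriers passed. Sex, read from sex-linked probes, was uneven between the groups, and with it as a block Slc1a1 had an adjusted p of 0.0537 (limma).

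The number of carriers that passed is given here beside the share of all genes that passed under the same setting. With single arrays left out it was 1 of 9 without control 1 or control 3 (4.73% and 6.11% of all genes), 2 without control 2 or knockout 2 (5.85% and 6.85%), 3 without knockout 3 (10.7%) and 4 without knockout 1 (29.8%). It was 4 of 9 with a replicate block (20.2% of all genes), with slide as a block (18.5%), with array quality weights (35.3%) and at an adjusted p under 0.10 (25.5%). It was also 4 with normexp background correction (16.8%), with trend and robust eBayes (16.9%), with quantile scaling (15.3%), with the mean of a gene's probes (15.6%), with probes well above background on all 6 arrays (15.7%), with the percentile over such probes (15%) and in the deposited table (14.9%). It was 3 with sex as a block (9.92%) and with array median scaling (14.4%). With the dimmer probes it was also 3, but that setting replaced probes of the carriers only, and no share of all genes was counted. It was 1, Slc6a20a, on slide 1 alone (5.11%), at an adjusted p under 0.01 (3.8%) and without the filter on dim probes (2.97%), and 0 with groups by source name and genotype (0% of all genes).

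**Figure D3:**
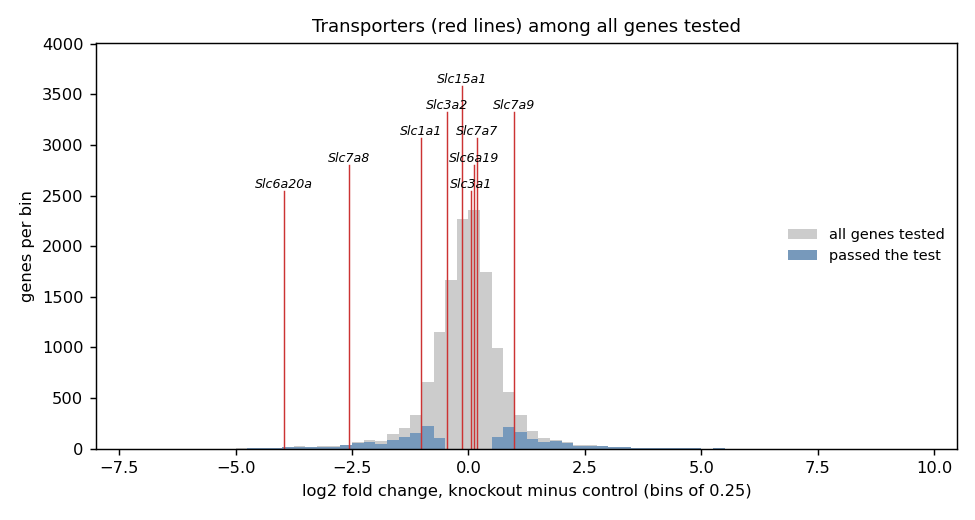
Number of genes per bin of 0.25 in log2 fold change, knockout minus control, for all 13496 genes tested (grey) and for the 2011 that passed (blue), with the 9 carriers as red lines. Slc6a20a lies in the far left tail, Slc7a8 further in, and 5 carriers lie within the central mass.

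The principal neutral amino acid carrier and the peptide carrier of the brush border showed no difference that passed. Slc6a19, which encodes B0AT1, had levels of 4.71, 4.96 and 5.49 in controls 1 to 3 and 4.60, 5.21 and 5.71 in knockouts 1 to 3. The groups overlapped along their whole range, and the fold change was 0.12 ± 0.33 with a 95% interval of -0.67 to 0.91 (limma, adjusted p = 0.823). Slc15a1, which encodes PEPT1, the proton-driven carrier of di- and tripeptides, had levels of 2.99, 2.84 and 4.05 in controls 1 to 3 and 2.66, 3.05 and 3.79 in knockouts 1 to 3. Within each group the array of slide 2 was the highest, and the fold change was -0.13 ± 0.41 with an interval of -1.11 to 0.85 (limma, adjusted p = 0.845). With intervals this wide the data do not show that the levels were equal.

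The heavy chains of both heteromeric systems did not pass, whereas some of their light chains did. Slc3a1 encodes rBAT, the apical partner of the Slc7a9 product, and had levels of 4.35, 4.37 and 5.04 in controls 1 to 3 and 4.10, 4.58 and 5.22 in knockouts 1 to 3. Its groups overlapped, and the fold change was 0.05 ± 0.33 with an interval of -0.74 to 0.84 (limma, adjusted p = 0.930). The log2 ratio of Slc7a9 to Slc3a1, set to 0 at the control mean, was 0.11, 0.28 and -0.39 in controls and 1.21, 1.11 and 0.44 in knockouts 1 to 3. The ratio was thus higher on each knockout array than on any control array, with knockout 3 the nearest.

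Slc3a2 encodes 4F2hc, the basolateral heavy chain that pairs with the products of both Slc7a7 and Slc7a8 and with other light chains. Its level was 5.93, 5.83 and 6.39 in controls 1 to 3 and 5.27, 5.60 and 5.93 in knockouts 1 to 3. Knockout 3 reached the level of control 1 while the other knockout arrays lay below all controls, and the fold change was -0.45 ± 0.24 with an interval of -1.02 to 0.12 (limma, adjusted p = 0.226). Its second probe gave -0.41. Slc7a7 encodes y+LAT1, which releases basic amino acids to the blood in exchange for neutral ones, and had levels of 6.67, 6.51 and 7.07 in controls 1 to 3 and 6.73, 6.96 and 7.15 in knockouts 1 to 3. The groups overlapped, with a fold change of 0.19 ± 0.21 and an interval of -0.30 to 0.69 (limma, adjusted p = 0.538). Set to 0 at the control mean, the log2 ratio of Slc7a8 to Slc3a2 was -1.53, -2.97 and -1.86 in knockouts 1 to 3, and that of Slc7a7 to Slc3a2 was 0.76, 0.66 and 0.52. On every knockout array the ratios of the light chains that share this heavy chain lay on opposite sides of the control mean. Under array median scaling the fold changes of Slc6a19, Slc3a1 and Slc7a7 turned negative, at -0.13, -0.20 and -0.06, and none of the 3 passed.

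The carriers also differed in how they varied from array to array. Slc6a19 and Slc3a1 followed each other most closely, with a root mean square difference of 0.09 on the log2 scale over the 6 arrays once each gene was centred on its mean. Slc15a1 and Slc7a7 followed Slc3a1 at 0.19 and 0.23. In each of these 4 genes slide 2 held the highest array of both groups, and knockout 1 was the lowest knockout array. The mean deviation of 17 absorptive enterocyte markers from the control mean was likewise highest on slide 2 in both groups and lowest on knockout 1 among knockouts, at -0.17, -0.05 and 0.22 in controls 1 to 3 and -0.77, -0.23 and 0.33 in knockouts 1 to 3. Lct, the lactase gene, weighs on these means: without it, a choice made after its values were seen, the knockout means were -0.44, 0.18 and 0.51, with the same arrays highest and lowest.

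**Figure D4:**
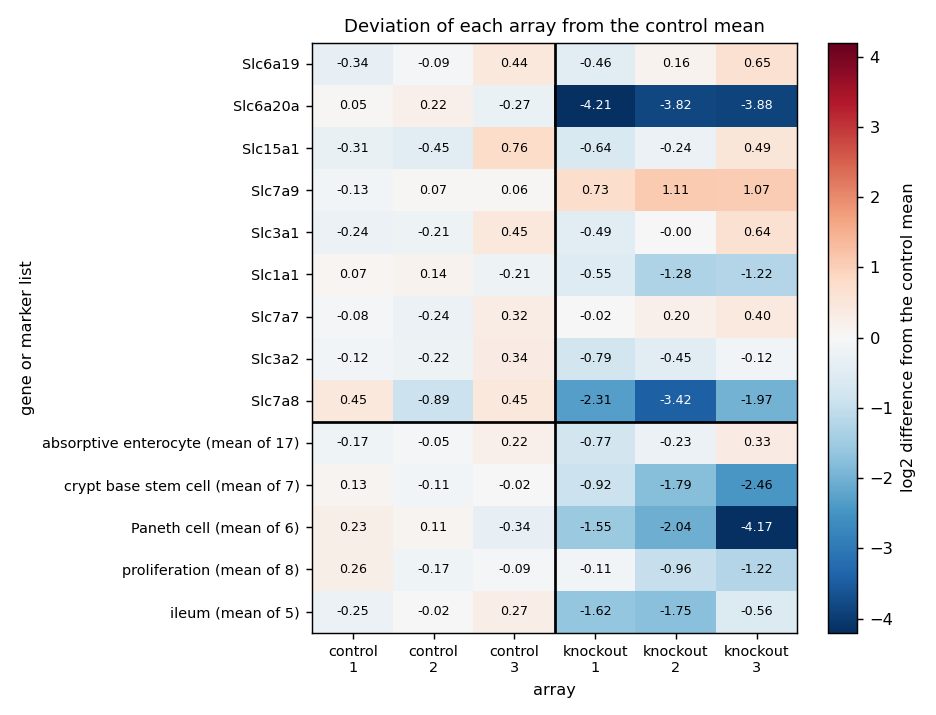
Log2 difference of each array from the control mean for the 9 carriers (upper rows) and, as means over their measured genes, for 5 marker lists (lower rows). Red is above and blue below the control mean. Slc6a20a and Slc7a8 are low on all 3 knockout arrays, and Slc6a19, Slc15a1 and Slc3a1, like the enterocyte markers, are highest on control 3 and knockout 3.

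Fewer cells of a type and less RNA per cell cannot be told apart in such samples. Of the 17 enterocyte markers measured, 1 fell, Lct, at -5.10, and 0 rose, beside 7.62% and 7.28% of all genes. The median was 0.29, with 12 positive. Their summed linear signal, in units of the array's 75th percentile, ranged from 4650 to 5970 over control arrays and from 4010 to 7460 over knockout arrays, so the ranges overlapped. Of 8 stem cell markers of the crypt base 7 were measured and 3 fell, beside 7.62% of all genes. Their summed signal was 56.1 to 77.0 in controls and 6.32 to 30.0 in knockouts. Of 7 Paneth cell markers 6 were measured and 4 fell, Wnt3 among them, beside the same 7.62% of all genes. The summed Paneth signal was 1740 to 1830 in controls and 212 to 1060 in knockouts. Of these markers Wnt3, of the Paneth list, cleared background on 0 of 3 knockout arrays and was at least 5.21-fold lower, so it passed the filter on dim signals through the controls alone. Rgmb, of the stem cell list and among the 3 that fell, cleared it on 1 of 3. The part of cell composition in the carriers' changes was not tested.

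Amino acid carriers differ along the intestine, so regional genes are given beside them. The counts of falls and rises below stand beside 7.62% and 7.28% of all genes. Of 6 ileal markers 5 were measured: Fabp6, the ileal bile acid binding protein, cleared background on 0 of 3 knockout arrays and was at least 3.29-fold lower (limma, adjusted p = 0.00934), and Osr2, a transcription factor, had a fold change of -2.98 (limma, adjusted p = 0.0428). Fabp6 passed the filter on dim signals through the controls alone. Slc51b, a subunit of the basolateral bile acid exporter, rose by 1.83 (limma, adjusted p = 0.0205). Slc51a, the other subunit, had -0.77 and the bile acid carrier Slc10a2 had -1.94, and neither passed. The median over the 5 was -1.94, with 4 negative, while the summed ileal signal, carried mostly by Slc51a and Slc51b, ranged from 38.3 to 54.2 in controls and from 48.6 to 97.8 in knockouts. Among 6 proximal markers, all measured, 1 rose, the duodenal factor Pdx1, by 2.24 (limma, adjusted p = 0.0202). The median over the 6 was 0.71, with 5 positive, while their summed signal, carried mostly by Adh6a (-0.71, limma adjusted p = 0.0581), was 424 to 506 in controls and 273 to 436 in knockouts. Of 6 colon markers 4 were measured and 2 fell, among them the water channel Aqp8, well above background on 1 of 3 knockout arrays. Of 8 fibroblast and smooth muscle markers only Acta2, smooth muscle actin, passed the filter on dim signals, and it rose by 0.91 (limma, adjusted p = 0.0479), while the collagens Col1a1, Col1a2 and Col3a1 did not pass the filter. Of 6 endothelial markers 3 were measured and 0 passed, with a summed signal of 0.195 to 0.298 in controls and 0.434 to 0.515 in knockouts. These markers, Pecam1, Vwf and Plvap, cleared background on 3 of 3 knockout arrays but only on 2, 1 and 1 control arrays. Their control sum thus lay near the background. Of 10 exocrine pancreas markers 9 were measured and 2 fell, Clps and Cpa1, the latter at least 4.42-fold and clear of background on 0 of 3 knockout arrays, with a summed signal of 30.5 to 55.4 in controls and 10.9 to 19.5 in knockouts. Cpa1 too passed the filter through the controls alone. T cell markers, 7 of 8 measured, summed to 34.8 to 122 in controls and 46.7 to 122 in knockouts. Goblet cell markers, 8 of 8 measured, showed 3 falls, and of 8 proliferation genes 0 passed. At an unadjusted p under 0.05 (limma) 0 proliferation genes were higher and 6 lower, beside 4619 of all 13496 genes. The part of any of these in the carriers' changes was not tested.

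By the rule for likeness, the genes closest to Slc6a20a over the 6 arrays were Slc14a1, the urea transporter, Rdh16, a retinol dehydrogenase, and Gper1, a membrane estrogen receptor, at root mean square differences of 0.24, 0.28 and 0.29 on the log2 scale. Their fold changes were -4.29, -3.66 and -3.73, near that of Slc6a20a because the rule picks genes with similar values on the same arrays. Closest to Slc7a8 were Gsdme, a gasdermin, Nrarp, a Notch feedback regulator, and Amn, the partner of cubilin in vitamin B12 uptake, at 0.33, 0.36 and 0.42. For Slc7a9 the closest were Sec61a2, Fcho2 and Sec22b, at 0.04, 0.05 and 0.05, and for Slc1a1 they were Trim44, Iqce and Snupn, at 0.07, 0.08 and 0.09.

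The stretches of genome just before the start of the 4 carriers that passed are shown because 3 of these genes fell together and 1 rose. Each is 250 bases before the RefSeq start on assembly GRCm38.p6, taken for all 9 carriers, written 5′ to 3′ on the strand of the gene, with matches to the motifs listed afterwards in capitals. For Slc7a9, which has 2 starts in the table, the more upstream one is shown.
Slc6a20a, chr9:123678833-123679082, minus strand: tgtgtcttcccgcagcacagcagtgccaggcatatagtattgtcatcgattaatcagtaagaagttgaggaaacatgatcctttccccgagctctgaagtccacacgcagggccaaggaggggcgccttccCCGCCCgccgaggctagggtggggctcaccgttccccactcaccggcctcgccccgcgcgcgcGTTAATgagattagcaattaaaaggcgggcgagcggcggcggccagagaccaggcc
Slc7a8, chr14:54781887-54782136, minus strand: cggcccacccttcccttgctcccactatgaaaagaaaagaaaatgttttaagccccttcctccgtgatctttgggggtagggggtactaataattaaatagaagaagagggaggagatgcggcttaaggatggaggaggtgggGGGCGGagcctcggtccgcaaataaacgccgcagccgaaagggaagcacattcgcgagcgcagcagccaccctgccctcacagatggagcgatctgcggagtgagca
Slc1a1, chr19:28834885-28835134, plus strand: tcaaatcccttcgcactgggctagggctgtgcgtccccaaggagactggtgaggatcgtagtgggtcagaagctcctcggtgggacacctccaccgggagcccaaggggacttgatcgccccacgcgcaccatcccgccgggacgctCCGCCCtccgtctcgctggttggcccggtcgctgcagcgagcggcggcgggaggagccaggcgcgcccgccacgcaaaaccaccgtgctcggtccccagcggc
Slc7a9, chr7:35448842-35449091, plus strand: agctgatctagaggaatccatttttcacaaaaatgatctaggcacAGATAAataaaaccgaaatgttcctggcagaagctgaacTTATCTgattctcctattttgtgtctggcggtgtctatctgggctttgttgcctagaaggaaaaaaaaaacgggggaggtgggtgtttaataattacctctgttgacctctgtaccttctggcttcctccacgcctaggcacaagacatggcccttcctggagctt

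The windows were searched on both strands for 7 motifs. These were CAAAGT for the nuclear receptor HNF4, GTTAAT for the homeodomain factor HNF1, TTTATG for the intestinal factor CDX, AGATAA for GATA factors, TGANTCA for the AP-1 dimer, TATAAA for the promoter box of that name and GGGCGG for the GC box of Sp factors. A GC box was found before each of the 3 carriers that fell, at -119 to -114 in Slc6a20a, -107 to -102 in Slc7a8 and -103 to -98 in Slc1a1, counted from the start, and also before Slc3a2 and Slc7a7. It occurs in 32.7% of the 32851 windows of this length in the table. An HNF1 motif, present in 6.43% of windows, lay before Slc6a20a and before 1 start of Slc7a7. The window shown for Slc7a9 held 2 GATA sites, and no GC box. The window of its other start held no match to any of the 7 motifs, so the GATA sites depend on the start chosen. GATA sites, found in 9.99% of windows, also lay before Slc3a1 and Slc7a7. The HNF4 motif, present in 12.6% of windows, was found before Slc15a1, Slc3a1 and Slc7a7, AP-1 (6.75%) and TATAAA (12.4%) before Slc3a1, and the CDX motif (10.8%) before 0 of the 9. The 3 carriers that fell had the most CG dinucleotides of the 9, with 27 in Slc1a1, 21 in Slc6a20a and 14 in Slc7a8, beside 11 in Slc3a2, 7 in Slc15a1, 6 in Slc3a1, 4 and 6 in the 2 starts of Slc7a9, 3 in Slc6a19 and 4 to 10 in the 5 starts of Slc7a7. The median of all windows is 6. These matches and counts are a description of the letters, chosen with the fold changes known, and no binding was measured.

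Of 44 other carriers of amino acids and peptides 24 were bright enough to be tested. Among these 5 fell and 2 rose, beside the 7.62% and 7.28% of all genes, and the median log2 fold change was -0.46. Of the 5, Slc1a3 passed the filter on dim signals through the controls alone. Carriers that cleared background only in the knockout were left out by that filter, so these counts do not show that falls outnumber rises. Slc36a1, the proton-driven carrier PAT1 of small neutral amino acids, had levels of 1.26, 1.86 and 2.23 in controls 1 to 3 and -0.47, -1.01 and 0.06 in knockouts 1 to 3, a fold change of -2.26 ± 0.35 (limma, adjusted p = 0.0105), with -0.81 on its dimmer probe. Slc6a6, the taurine carrier, had levels of 4.64, 4.34 and 4.72 against 2.39, 3.20 and 3.38, a fold change of -1.57 ± 0.28 (limma, adjusted p = 0.0169). In both genes every knockout array lay below every control array.

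Slc16a10, the basolateral carrier TAT1 of aromatic amino acids, had a fold change of -1.25 ± 0.30 (limma, adjusted p = 0.0393). Slc15a2, the high-affinity peptide carrier PEPT2 and relative of Slc15a1, had -2.52 ± 0.60 (limma, adjusted p = 0.0382), with 2 of 3 knockout arrays well above background. Slc1a3, a glutamate carrier of the same family as Slc1a1, cleared background on 0 of 3 knockout arrays and was at least 6.20-fold lower (limma, adjusted p = 0.0117), from control levels of -0.82, -1.85 and -1.20. It passed the filter on dim signals through the controls alone, so its place among the 5 that fell rests on them. Such a bound takes for each dim array the lowest signal that still cleared background, or the probe's own where that was higher.

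The genes that rose were Slc43a3, by 3.44 ± 0.42 (limma, adjusted p = 0.00487), and Slc38a8, by 1.51 ± 0.30 (limma, adjusted p = 0.0219), the latter by 0.18 on its dimmer probe. Slc43a3 belongs to a family of amino acid carriers but is known for carrying purine bases, and Slc38a8 is a neutral amino acid carrier. Slc43a3 lay at -1.62, -1.27 and -0.69 in controls 1 to 3 and at 1.84, 1.78 and 3.12 in knockouts 1 to 3. Without knockout 2 and control 3, 1 of the 24 passed, Slc43a3 (limma, adjusted p = 0.0348). The number was 3 without control 1 (4.73% of all genes), 4 without control 2 (5.85%) and 4 without control 3 (6.11%). Slc36a1 and Slc43a3 passed with any single array left out. So did Slc1a3, which had passed the filter on dim signals through the controls alone.

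**Figure D5:**
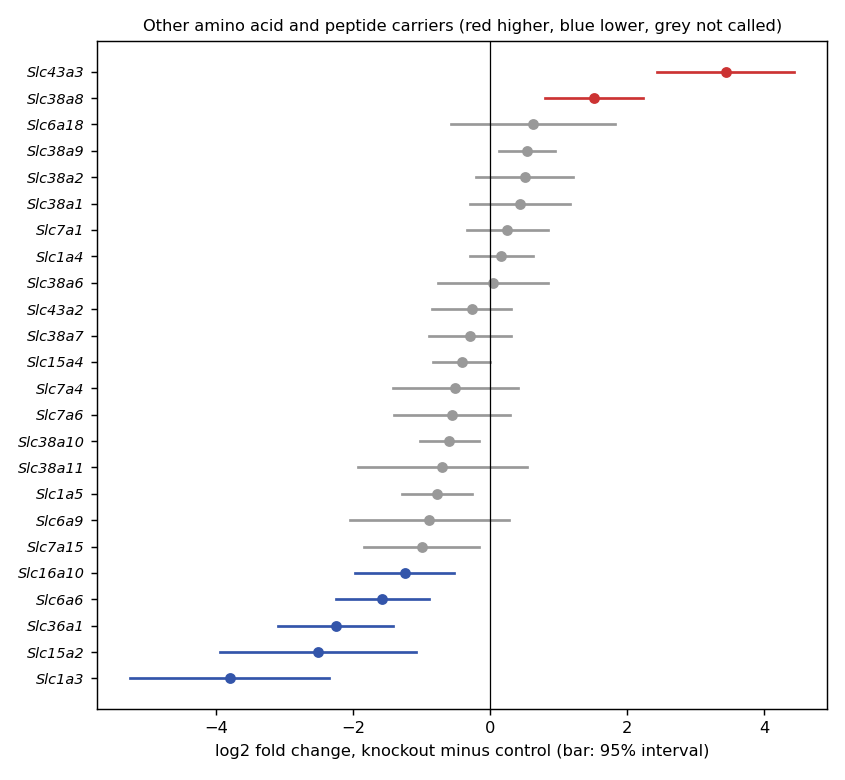
Log2 fold change, knockout minus control, of the 24 other amino acid and peptide carriers that were measured, with 95% intervals from limma. Blue marks the 5 that fell, red the 2 that rose and grey the 17 that did not pass, and Slc1a3 lies lowest and Slc43a3 highest.

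Among the carriers that did not pass, the glutamine carrier Slc1a5 had a fold change of -0.78 ± 0.21 (limma, adjusted p = 0.0555), with all knockout arrays below all control arrays. Slc43a2, the basolateral carrier LAT4, had -0.27 ± 0.24, the basic amino acid carrier Slc7a1 had 0.25 ± 0.25, and Slc38a2, the carrier SNAT2, had 0.51 ± 0.30. The other 20 genes of the list did not pass the filter on dim signals. Among these Slc7a5, the light chain LAT1, was well above background on 2 of 6 arrays, and Slc6a14, a carrier of neutral and basic amino acids, on 0 of 6. Slc7a3, Slc7a11 and Slc38a3 were so on 2 knockout and 0 control arrays, and Slc1a2, Slc6a17 and Slc38a4 on 1 and 0. None of the 20 was so on control arrays alone. The count of falls and rises thus leaves out carriers that cleared background only in the knockout.

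Of 9 partners and ion pumps of these carriers 8 were measured, 1 fell and 0 rose, beside 14.9% of all genes that passed, with a median log2 fold change of -0.02. The one that fell was Pdzk1, a scaffold of brush border transporters, at -1.49 ± 0.28 (limma, adjusted p = 0.0194). Slc9a3, the sodium-proton exchanger that keeps up the proton gradient for peptide uptake, had 0.53 ± 0.44 (limma, adjusted p = 0.423). Cltrn, a partner of B0AT1 in the kidney, was well above background on 1 of 6 arrays and was not tested.

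Peptidases that deliver the substrates of these carriers showed 4 falls and 0 rises among 14 measured, beside 7.62% of all genes lower and 7.28% higher, with a median log2 fold change of -0.53. Xpnpep2, an aminopeptidase that cuts before proline, had levels of 4.23, 4.12 and 5.06 in controls 1 to 3 and 0.14, 0.43 and 1.20 in knockouts 1 to 3, a fold change of -3.88 ± 0.36 (limma, adjusted p = 0.00183). Naaladl1 had -3.15 ± 0.69, the meprin subunit Mep1a -2.26 ± 0.46 and the glutamyl aminopeptidase Enpep -1.84 ± 0.46. Anpep, the abundant aminopeptidase N, had 0.06 ± 0.25 and did not pass (limma, adjusted p = 0.892), so the peptidases too were split between genes that fell and genes that did not pass.

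The genes that cells induce when amino acids run short mostly did not pass. Of 20 measured, 2 fell and 0 rose, beside 7.62% and 7.28% of all genes, and the median log2 fold change was 0.03. Those that fell were Aldh18a1, of proline synthesis, at -1.22 ± 0.15 (limma, adjusted p = 0.0045), and the transcription factor Cebpb at -0.94 ± 0.23 (limma, adjusted p = 0.0410). Atf4, the transcription factor of this response, had 0.66 ± 0.21 (limma, adjusted p = 0.0795), with levels of 7.31, 7.01 and 7.27 in controls 1 to 3 and 7.55, 7.81 and 8.19 in knockouts 1 to 3. Asns, asparagine synthetase and a classical target, had -0.13 ± 0.28 (limma, adjusted p = 0.756). At an unadjusted p under 0.05 (limma), 5 of the 20 were higher and 3 lower, each without overlap of the groups. Over all genes, 4619 of 13496 were under that unadjusted p, and 39.7% had groups without overlap. The 5 response genes that were higher were Atf4, Chac1, Ddit3, Trib3 and Sesn2, and none of them passed. Chac1 had the largest change of the 20, at 3.05 ± 0.87 (limma, adjusted p = 0.061). Ddit3 had 1.004, Trib3 0.98 and Sesn2 0.497, with limma adjusted p of 0.0797, 0.123 and 0.0642. The 3 lower were Aldh18a1, Cebpb and Ddit4, the last at -0.45 (limma, adjusted p = 0.0956). Over the partners, peptidases and response genes together 7 of 42 passed, a share near the 14.9% of all genes. The number was 2 without control 1 (4.73% of all genes), 3 without control 2 (5.85%), 2 without control 3 (6.11%), 2 without knockout 2 (6.85%) and 1 without both arrays of contradicting labels (2.37%), with Xpnpep2 and Aldh18a1 passing with any single array left out.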

How the data were processed

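The authors obtained spot intensity with Agilent's Feature Extraction software; per the file headers the version was 12.0.3.1, the submitters' processing notes give 11.5.1.1, and background was subtracted within each array with no scaling between arrays. The series table deposited by the authors is in log2 units, equal to the scaling used here after each probe was centred on its median; its columns have medians of 0.196 (control 1), 0.0610 (control 2), -0.325 (control 3), -0.0717 (knockout 1), 0.216 (knockout 2) and -0.184 (knockout 3). The flags for background, outliers and saturation are other values of the file headers' software.

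Control and outlier-flagged spots were left out, spots of a probe averaged, and log2 intensity taken minus each array's 75th percentile, which was 205 to 295. Probes were named by accession through a RefSeq table (GRCm38.p6): 33767 received 1 symbol, 22838 none. Probes well above background on at least 3 arrays were kept (26746), and the brightest per gene was used. The fit was limma 3.58.1 (R 4.3.3) on group alone, with eBayes. On simulated data for knockout against control (13492 genes) it recovered 32% of 50 genes changed 2-fold and 64% of 50 changed 2.83-fold. At 4-fold and at 8-fold it recovered 88% of 50, with 5 false calls. Far fewer genes were changed there than the 2011 that passed here, so these shares do not measure the recovery in the real data. Promoter sequences are those of RefSeq; probe sequences were not used here.

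Members and lists were chosen with earlier results of these data known. Named genes were all members, up to 8 called genes of each list, a preset set of carriers, partners and response genes given whether called or not, and the 3 nearest genes of a member. Marker genes were named beside them, as were some carriers too dim for the test and the response genes at an unadjusted p under 0.05. Correlations of same-numbered arrays' deviations were 0.246, 0.0797 and 0.352, each the highest for its control array, so they do not exclude pairs. The main fit did not take the numbers as pairs, and a replicate block was run as an alternative. Alternatives were labels, blocks, background, scaling, filter, probe, variance model, deposited table, threshold and each array left out; the dimmer probe was added after seeing the data. Some genes of the lists are counted but not reported by name here.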

Additional observations from a re-analysis of the deposited data

How the results depend on the processing

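Counts of genes that passed moved with several settings. Of all genes, against 2011, it was 0 with groups by source name and genotype (207 at an unadjusted p under 0.05, limma), 320 without both arrays with contradicting labels, 689 on slide 1 alone, 1339 with sex as a block, 697 without the filter on dim probes, 4763 with array quality weights, 3445 at an adjusted p under 0.10 and 513 at 0.01. Of the apical carriers, against 3, it was 0 with the other labels (0 unadjusted), and 1 without both arrays, on slide 1, without the filter and at 0.01. Of the basolateral carriers, against 1, it was 0 in all these settings, with 1 at an unadjusted p except under the other labels (0). Of the other carriers, against 7, it was 0, 1, 4, 3 and 1 for other labels, without both arrays, slide 1, no filter and 0.01. Of partners, peptidases and response genes, against 7, it was 0 with the other labels, 1 without both arrays, 11 with slide as a block, 2 without the filter, 15 with array weights, 14 at 0.10 and 2 at 0.01. With 1 array left out the counts ranged from 638 to 4023, 1 to 3, 0 to 1, 3 to 9 and 2 to 10 in the same order. With the replicate block the last count was 11 and that of all genes 2731, while the carriers' counts stayed at 3 and 1; the numbers are not shown to pair the arrays (own-number correlations 0.246, 0.0797 and 0.352, each the highest for its control array).

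Signs turned only for carriers near 0, and for 2 others under the other labels, where Slc7a8 was at 0.00824 and Slc3a2 at 0.0760. Slc6a19 was at -0.13 with array median scaling and ranged from -0.15 to 0.41 with 1 array left out, negative without control 1 or knockout 3. Slc15a1 was at 0.54 with the other labels, 0.31 without both arrays, and -0.44 to 0.25 with 1 array left out, positive without control 3 or knockout 1. Slc3a1 was at -0.0207 on slide 1, -0.20 with array median and -0.0532 with quantile scaling, and -0.25 to 0.32 with 1 array left out, negative without control 1, control 2 or knockout 3. Slc7a7 was at -0.0556 with array median scaling. Slc6a20a kept its direction in each setting; it was at -1.60 (limma, adjusted p = 0.999) under the other labels and otherwise from -4.22 to -3.05, passing in each of those with a test. The causes were not tested. With array median scaling 28.7% of the genes that passed were higher, instead of 48.8%. With 3 arrays a group, changes under 2-fold are the least secure.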
